A study of Mus musculus with 12 samples.

Results

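The genes described here are 35 markers of lymphocytes measured in bulk RNA of mouse kidney, of 33188 genes in the deposited table. They were taken from the table by gene symbol, from a list drawn up with earlier results of these data known: 20 mark T cells and natural killer (NK) cells, and 15 mark B cells and plasma cells. All 35 had a row, and 28 had enough counts to be tested, 17 of the T and NK genes and 11 of the B and plasma genes. The study holds 12 libraries, 4 in each of 3 groups of wild-type (WT) kidneys. The XZSW group is named for the herbal decoction Xin-Zi-Sheng-Wan, which was tested on a model of hyperuricemia, an excess of uric acid in the blood. The HUA group is that model, made with potassium oxonate, which blocks the breakdown of uric acid, and hypoxanthine, a precursor of it. The CTL group is the control. The labels do not state that the XZSW kidneys received the 2 model agents, which follows only from the study's design text, and every comparison of XZSW with HUA rests on that reading. The labels give the genotype as WT in all 3 groups, and no strain, age, sex, dose or duration. No label says that the libraries came from separate animals, so the p-values below measure the spread between libraries, which may be technical.

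T cells recognise antigen through a receptor whose alpha and beta chains are carried by the CD3 chains, and NK cells and cytotoxic T cells kill through perforin and granzymes. B cells carry an antibody as their receptor, with the CD79 chains as its signalling part. Plasma cells secrete antibody, built from heavy and light chains, and add the J chain when they release IgA or IgM as joined units. A kidney holds few of these cells beside its tubules, and some of those that bulk tissue contains travel in its blood. In bulk RNA, fewer cells of a type and less RNA per cell cannot be told apart.

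The totals ran between 51643999 and 74288100 counts per library. Levels of 1 gene across libraries are given as CPM, counts scaled to a common library size, after TMM scaling, which corrects for differences in RNA composition. Levels of different genes are compared as FPKM, which also divides by gene length. Tests were edgeR's quasi-likelihood F-tests on the counts of all 12 libraries, with Benjamini-Hochberg adjustment over the 19772 genes tested, and a gene was called at an adjusted p under 0.05. Libraries HUA2, HUA3, HUA4, XZSW3 and XZSW4 had higher levels of GC-rich genes (slopes of 0.21 to 0.33 log2 units per 10 percentage points of GC) than the other 7 libraries (slopes between -0.06 and 0.04). No CTL library is among those 5. The called members below are therefore also given within the libraries of 1 kind. HUA1 is the only HUA library of low GC slope, so a low-slope comparison that involves HUA has 1 HUA library and is given as a value with no p. Counts that are multiples of 4 were overrepresented in the table (the count 4 occurred 10674 times, the count 3 5919 times and the count 5 3763 times), so a count of a few reads cannot be read as that many independent molecules.

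The transcripts of antibody chains dominated these genes, and most genes of the lymphocyte surface were near the detection limit. Averaged over the 12 libraries, the kappa light chain gene Igkc stood at 20.5 FPKM, the IgA heavy chain gene Igha at 4.66 FPKM and the IgM heavy chain gene Ighm at 1.96 FPKM. Trac, the constant part of the T cell receptor alpha chain, was the highest T cell gene at 1.89 FPKM, close to Cd72 at 1.89 FPKM, Jchain at 1.69 FPKM and Mzb1, a chaperone of antibody-secreting cells, at 1.49 FPKM. The remaining 28 genes were under 1 FPKM. Defining B cell genes were close to absent: Ms4a1, which encodes CD20, had 24 counts over the 4 XZSW libraries, 4 over the HUA libraries and 0 over the CTL libraries, and Pax5, the B cell identity factor, had 14, 4 and 0 counts in the same groups. The NK receptor genes Klrb1c and Ncr1 were counted in 5 and 8 of the 12 libraries. The labelled tissue showed in 8 kidney genes, among them Kap, Lrp2 and Umod, whose summed level averaged 23771 CPM in XZSW, 12981 CPM in HUA and 36335 CPM in CTL.

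**Figure D1:**
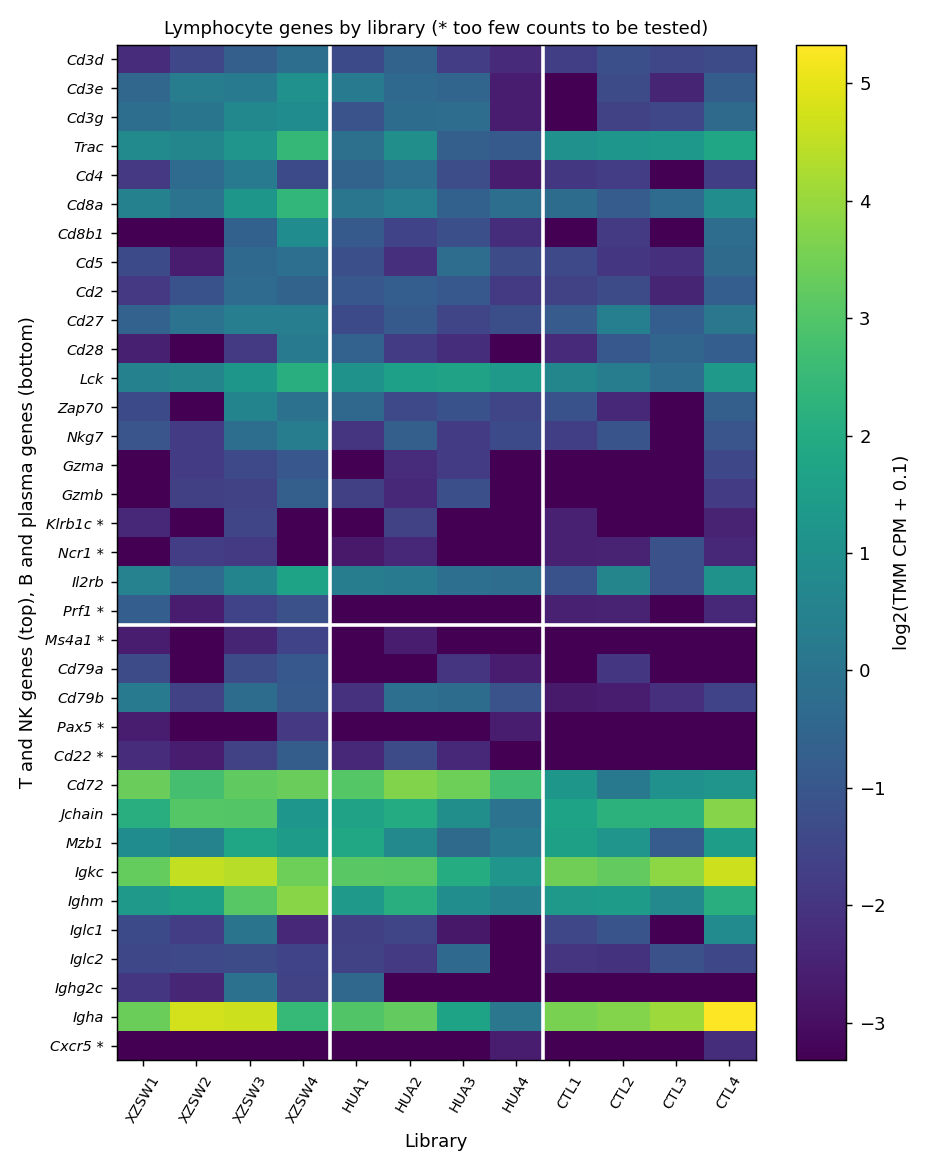
Level of the 35 lymphocyte genes in each library, as log2(TMM CPM + 0.1), with the libraries in columns and the genes in rows. Igkc, Igha and Cd72 form the bright rows. XZSW4 held the highest value of 13 of the 20 T and NK genes, and CTL4 the highest Igha.

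The T and NK genes showed few calls. Of these, 0 of 17 rose in HUA against CTL and 1 fell, against 27.8% of all tested genes called (14.9% higher and 12.8% lower). In XZSW against HUA 1 rose and 0 fell, against 15.4% of all genes (7.09% higher and 8.34% lower). In XZSW against CTL edgeR's quasi-likelihood test called 0 of 17, against 4.99% of all genes (2.72% higher and 2.27% lower). At an unadjusted p under 0.05 that comparison held 3 genes (Cd3e, Cd3g and Cd8a), DESeq2 called 1 and limma 0. The same unadjusted limit held 2 of the 17 in HUA against CTL and 3 in XZSW against HUA, where DESeq2 called 2 and 3 of these 17 and limma 0 in both. Of the 11 tested for B and plasma cells, edgeR called 2 higher and 2 lower in HUA than in CTL, or 4 of 11 beside the 27.8% of all genes. It called 1 of 11 in XZSW against HUA, beside 15.4%, and 1 of 11 in XZSW against CTL, beside 4.99%, both higher in XZSW. At an unadjusted p under 0.05 these 3 comparisons held 6, 4 and 4 of the 11. The shares of all tested genes at the unadjusted limit, and with DESeq2 or limma, are not given here. Counts at that limit or by those tests, here and below, are therefore not read as an excess.

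**Figure D2:**
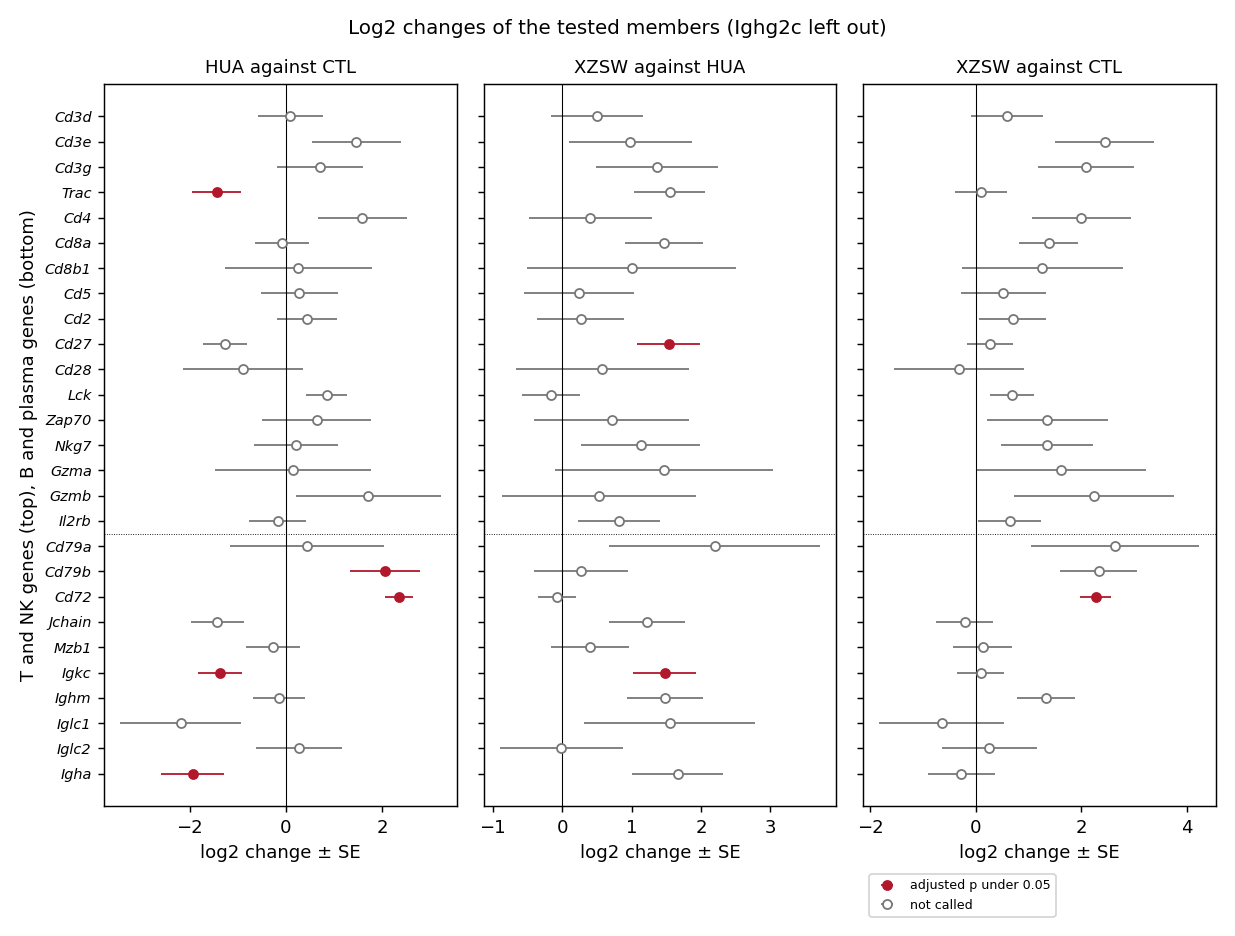
Log2 change ± SE of the tested lymphocyte genes in the 3 comparisons, with genes at an adjusted p under 0.05 filled. Ighg2c is left out because it has no counts in CTL. Cd72 has the narrowest error bar, with an SE of 0.29 in HUA against CTL and in XZSW against CTL.

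Cd72 was the clearest difference among these genes, higher in both XZSW and HUA kidneys than in CTL kidneys. It encodes a surface co-receptor that dampens B cell receptor signals and lies at chr4:43446462-43454628 (GRCm38, minus strand). Cd72 had 10.1, 6.71, 9.23 and 10.2 CPM in the XZSW libraries, 8.25, 12.8, 10.6 and 6.30 CPM in the HUA libraries, and 2.31, 1.03, 1.96 and 2.16 CPM in the CTL libraries. Every XZSW and HUA library was above every CTL library, while XZSW and HUA overlapped. Cd72 rose in HUA against CTL by 2.35 ± 0.29 log2 units (SE; edgeR's quasi-likelihood test, adjusted p = 0.000164). It rose in XZSW against CTL by 2.28 ± 0.29 log2 units (edgeR's quasi-likelihood test, adjusted p = 0.00467). Between XZSW and HUA the difference was -0.07 ± 0.28 log2 units (edgeR's quasi-likelihood test, adjusted p = 0.897).

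Both Cd72 calls held when any 1 of the 12 libraries was left out, with log2 changes of 2.15 to 2.53 in HUA against CTL and 2.08 to 2.40 in XZSW against CTL. Within the 7 libraries of low GC slope the change in XZSW against CTL was 2.19, from 2 XZSW libraries (edgeR's quasi-likelihood test, adjusted p = 0.00797), and that of HUA1 alone against CTL was 2.14. Per gene length, Cd72 averaged 2.45 ± 0.54 FPKM in XZSW, 2.78 ± 0.84 FPKM in HUA and 0.43 ± 0.14 FPKM in CTL (SD, n = 4 each). The B cell genes Cd79a, Cd79b, Ms4a1, Pax5, Cd22 and Cxcr5 together averaged 0.618 ± 0.329 FPKM in XZSW, 0.424 ± 0.256 FPKM in HUA and 0.091 ± 0.054 FPKM in CTL (SD, n = 4 each). Genes of macrophages moved in the same direction: of 12 macrophage genes 10 rose in HUA against CTL and 3 in XZSW against CTL, beside 14.9% and 2.72% of all tested genes called higher, and their summed level was 97.8 to 271.3 CPM in XZSW, 342.5 to 472.4 CPM in HUA and 76.4 to 131.6 CPM in CTL. Between XZSW and HUA 4 of these 12 genes fell in XZSW, beside 8.34% of all tested genes called lower, and 8 were not called. The part of macrophages in the Cd72 level was not tested.

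The promoter of Cd72 is shown because Cd72 is the member with the steadiest difference. It is the RefSeq window on GRCm38.p6, chr4:43454577-43454876, minus strand, from 250 bases before to 50 bases after the start. Capitals mark the 1 match to TTCCTC, the reverse complement of GAGGAA, a core letter pattern of sites bound by the myeloid and B cell factor PU.1, whose first base lies at position -47 from the start.
Cd72: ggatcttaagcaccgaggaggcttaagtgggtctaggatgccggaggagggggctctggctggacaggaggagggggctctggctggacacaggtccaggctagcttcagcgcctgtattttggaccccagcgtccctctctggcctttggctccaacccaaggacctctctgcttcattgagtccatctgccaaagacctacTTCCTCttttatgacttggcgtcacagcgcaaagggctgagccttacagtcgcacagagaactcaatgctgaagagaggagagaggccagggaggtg
Searched as GAGGAA on both strands, the pattern occurred in 9289 of all 32851 promoters of this length, or 28.3%, and in 12 of the 23 promoters listed for 19 of the lymphocyte genes. The match describes letters in this window and not a bound site.

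Among the other B cell genes, Cd79b was called and the rest had few counts. Cd79b encodes a signalling chain of the B cell receptor. It had 1.05, 0.230, 0.728 and 0.440 CPM in XZSW, 0.137, 0.800, 0.727 and 0.369 CPM in HUA, and 0.0555, 0.0595, 0.129 and 0.235 CPM in CTL. The lowest HUA library lay among the CTL libraries, and the other 3 were above all CTL libraries. Cd79b rose in HUA against CTL by 2.06 ± 0.72 log2 units (edgeR's quasi-likelihood test, adjusted p = 0.0492). In XZSW against CTL its change was 2.33 ± 0.73 log2 units and missed the threshold (edgeR's quasi-likelihood test, adjusted p = 0.0783). The HUA call was lost when any of CTL1, CTL2, CTL3, HUA2, HUA3, HUA4, XZSW1, XZSW3 or XZSW4 was left out, with log2 changes of 1.79 to 2.62 over the 12 fits that left out 1 library. Within the libraries of low GC slope, where HUA1 is the 1 HUA library, the change was 0.19.

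Cd79a, the partner chain of Cd79b, was counted in 6 of the 12 libraries, at up to 0.423 CPM in XZSW, 0.153 CPM in HUA and 0.159 CPM in CTL. It was called in no comparison, with a change of 2.64 ± 1.60 log2 units in XZSW against CTL. Cd22, a B cell co-receptor that was too low to be tested, had 56 counts in the XZSW libraries, 37 in the HUA libraries and 0 in the CTL libraries. No fold is given, since these counts cannot be read as independent molecules. Cxcr5, the receptor that guides B cells to follicles, was counted in HUA4 at 0.059 CPM and in CTL4 at 0.117 CPM.

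**Figure D3:**
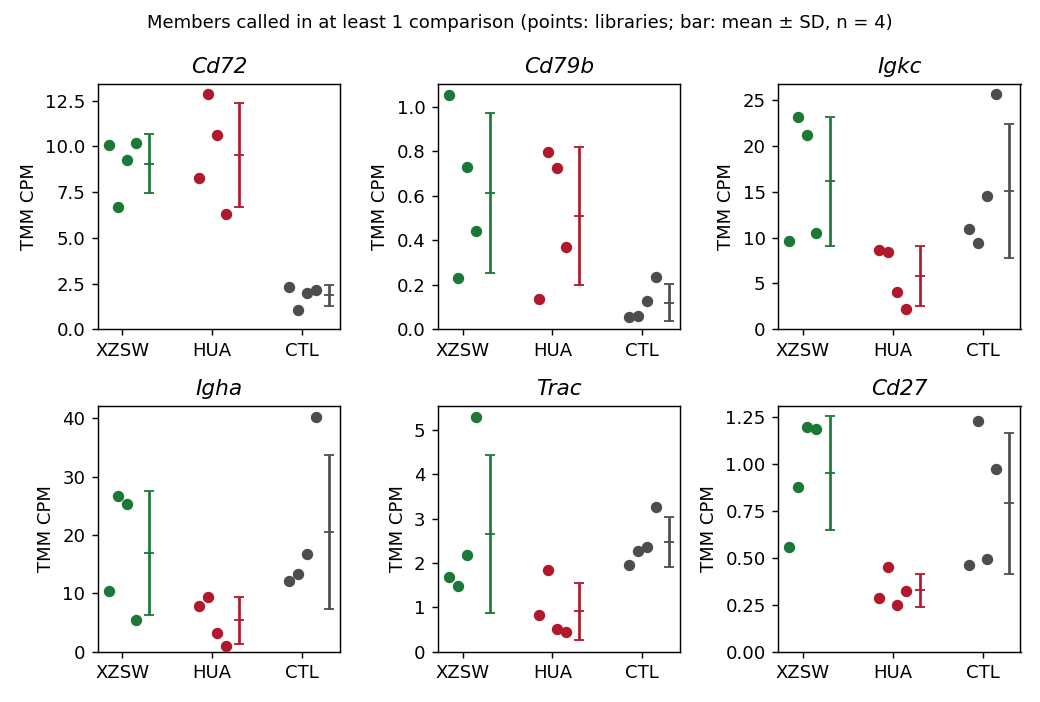
TMM CPM of the 6 lymphocyte genes called in at least 1 comparison, with a point per library and the mean ± SD of 4 libraries beside it. Cd72 separates XZSW and HUA from CTL, whereas Igkc is lowest in HUA, at 2.16 to 8.60 CPM.

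Igkc, Igha and Jchain, transcripts of antibody-secreting cells, had their lowest group means in HUA kidneys. Igkc, at chr6:70726435-70726966 (GRCm38, plus strand), had 9.64, 23.1, 21.2 and 10.5 CPM in XZSW, 8.60, 8.45, 4.01 and 2.16 CPM in HUA, and 10.95, 9.38, 14.5 and 25.6 CPM in CTL. Every HUA library was below every XZSW and every CTL library. Igkc fell in HUA against CTL by 1.38 ± 0.46 log2 units (edgeR's quasi-likelihood test, adjusted p = 0.0385). It rose in XZSW against HUA by 1.47 ± 0.46 log2 units (edgeR's quasi-likelihood test, adjusted p = 0.0456). Between XZSW and CTL the difference was 0.09 ± 0.45 log2 units.

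Igha, at chr12:113254830-113260236 (GRCm38, minus strand), had 10.4, 26.7, 25.2 and 5.47 CPM in XZSW, 7.82, 9.44, 3.12 and 0.989 CPM in HUA, and 12.04, 13.2, 16.7 and 40.1 CPM in CTL. HUA libraries were all below CTL libraries, and XZSW overlapped both. Igha fell in HUA against CTL by 1.94 ± 0.66 log2 units (edgeR's quasi-likelihood test, adjusted p = 0.0425). The change of 1.67 ± 0.65 log2 units in XZSW against HUA missed the threshold (edgeR's quasi-likelihood test, adjusted p = 0.105). Jchain had 4.26, 8.09, 7.89 and 2.25 CPM in XZSW, 3.05, 3.87, 1.83 and 0.886 CPM in HUA, and 3.14, 4.58, 4.67 and 13.6 CPM in CTL. HUA1 and HUA2 lay among the other groups for Jchain, and its change of -1.43 ± 0.55 log2 units in HUA against CTL missed the threshold (edgeR's quasi-likelihood test, adjusted p = 0.0706).

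These antibody calls depended on single libraries. Between HUA and CTL, Igkc lost its call without CTL3, CTL4, HUA3 or HUA4, and its change ranged between -1.60 and -1.001 over the 12 fits that left out 1 library. Igha lost its call without CTL2, CTL3, CTL4, HUA3, HUA4 or XZSW3, with changes of -2.34 to -1.39. Between XZSW and HUA, Igkc lost its call without CTL1, CTL2, CTL3, HUA3, HUA4, XZSW2 or XZSW3, with changes of 1.19 to 1.71. Within the 7 libraries of low GC slope, HUA1 alone against CTL gave -0.81 for Igkc and -1.39 for Igha, and XZSW1 and XZSW2 against HUA1 gave 0.95 for Igkc. Within the 5 libraries of high GC slope, XZSW against HUA gave 1.71 for Igkc, which missed the threshold (edgeR's quasi-likelihood test, adjusted p = 0.179).

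Haemoglobin transcripts, which come from blood in the tissue, also had their lowest group mean in HUA. The sum of Hba-a1, Hba-a2, Hbb-bs and Hbb-bt was 589.9, 111.1, 162.9 and 67.9 CPM in XZSW, 198.2, 25.5, 18.4 and 24.5 CPM in HUA, and 394.7, 574.3, 359.3 and 401.2 CPM in CTL. In HUA against CTL edgeR's quasi-likelihood test called all 4 genes lower, beside 12.8% of all tested genes, with a median change of -2.69 log2 units. There limma also called 4, and DESeq2 called 2. Between XZSW and HUA their median change was 1.86 log2 units, and edgeR's test called 0 of 4, beside 15.4% of all tested genes. All 4 had an unadjusted p under 0.05 in that edgeR test, and DESeq2 and limma called 0. Their part in the antibody gene levels was not tested.

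The other antibody genes did not pass the test in any comparison. Ighm had 2.45, 2.96, 8.30 and 13.9 CPM in XZSW, 2.45, 4.32, 1.78 and 1.30 CPM in HUA, and 2.39, 2.64, 1.59 and 4.32 CPM in CTL. XZSW3 and XZSW4 were above all other libraries, and XZSW1 and XZSW2 were not. Its change was 1.49 ± 0.55 log2 units in XZSW against HUA (edgeR's quasi-likelihood test, adjusted p = 0.0855) and 1.33 ± 0.55 in XZSW against CTL (adjusted p = 0.165 in the same edgeR test). Mzb1 had 1.77, 1.36, 3.36 and 2.56 CPM in XZSW, 3.45, 1.60, 0.692 and 1.09 CPM in HUA, and 2.90, 2.16, 0.474 and 2.71 CPM in CTL, and all 3 groups overlapped. Ighg2c, an IgG heavy chain, was counted in all 4 XZSW libraries, at 0.157, 0.0919, 0.845 and 0.220 CPM, in HUA1 at 0.648 CPM, and in none of the CTL libraries. Ighg2c had 88 counts over the XZSW libraries and 52 in HUA1, and it was called in no comparison. Ighg2c shares 86.3% of its aligned coding bases with Ighg2b, with an identical run of 78 bases, so reads may be split between them.

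The lambda light chain genes were low, and their sequences are shown because Iglc2 is close enough to Iglc3, a gene outside the 35, for reads to be shared. Iglc1 reached 0.903 CPM in XZSW, 0.247 CPM in HUA and 1.69 CPM in CTL, and Iglc2 reached 0.291 CPM in XZSW, 0.680 CPM in HUA and 0.344 CPM in CTL. Neither was called. Their first 90 coding bases on GRCm38 are printed below with Iglc3, at chr16:19061982-19062071 for Iglc1, chr16:19198763-19198852 for Iglc2 and chr16:19065592-19065681 for Iglc3, all on the minus strand, and capitals mark bases that differ from Iglc2.
Iglc1: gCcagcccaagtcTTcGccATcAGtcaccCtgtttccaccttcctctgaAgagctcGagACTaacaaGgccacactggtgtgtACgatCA
Iglc2: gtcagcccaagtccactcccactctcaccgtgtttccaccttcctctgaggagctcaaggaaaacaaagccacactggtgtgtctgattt
Iglc3: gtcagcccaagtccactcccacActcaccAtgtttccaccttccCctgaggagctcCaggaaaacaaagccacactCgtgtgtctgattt
Iglc1 differs from Iglc2 at 19 of these 90 bases and Iglc3 differs at 5. Over the aligned coding bases, Iglc2 and Iglc3 are 96.5% identical with a run of 79 identical bases, and Iglc1 and Iglc2 are 74.8% identical. The value of Iglc2 is therefore uncertain, since reads of Iglc3 can be counted there.

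The make-up of heavy chain transcripts varied most within XZSW. Igha made up 69.5, 83.9, 63.2 and 20.5% of the summed heavy chain FPKM in XZSW1 to XZSW4, 58.2, 58.8, 54.4 and 34.4% in HUA1 to HUA4, and 76.2, 74.7, 87.8 and 86.0% in CTL1 to CTL4. All HUA libraries were below all CTL libraries, a difference given without a test, and XZSW spanned both. In XZSW4 Ighm was 73.6% of heavy chain transcripts, and in HUA4 63.5%. The share of IgG genes was highest in HUA1, at 14.8%. Lambda chains were 2.06 to 6.14% of light chain FPKM in XZSW, 0.00 to 13.7% in HUA and 2.87 to 7.91% in CTL.

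**Figure D4:**
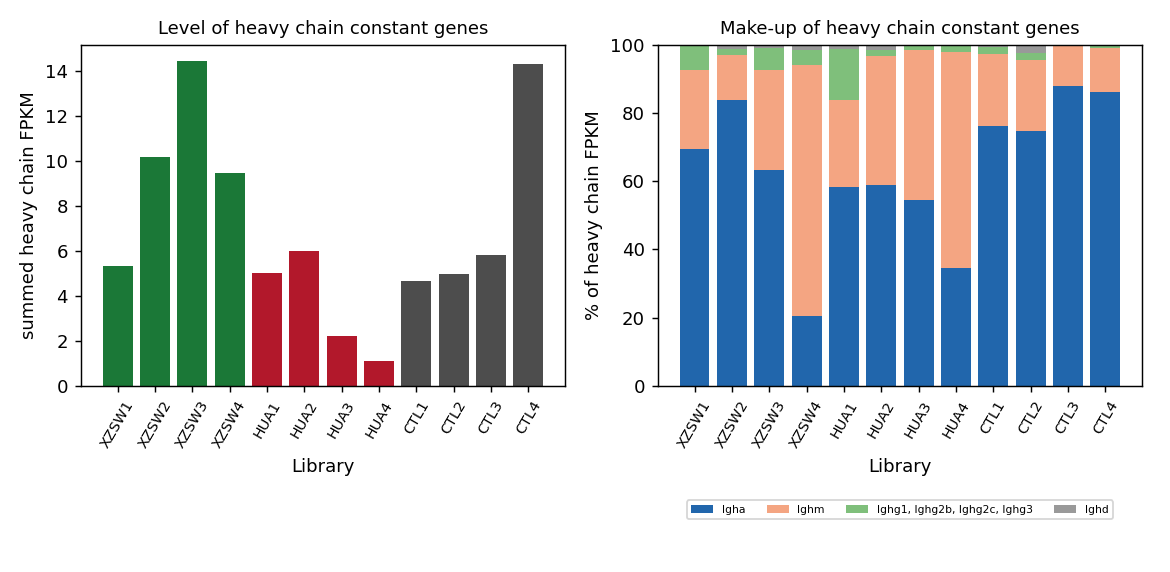
Summed FPKM of the heavy chain constant genes per library (left) and the share of each class in it (right). Igha makes up most of the bar in the 4 CTL libraries, at 74.7 to 87.8%, and 20.5% in XZSW4, where Ighm makes up 73.6%.

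Variable segments, which differ between lymphocyte clones, were counted as single genes in the table. Of 86 kappa segments, 27 to 44 had counts in XZSW libraries, 7 to 30 in HUA libraries and 13 to 47 in CTL libraries, with 213 to 595, 36 to 289 and 131 to 656 counts in all. The most counted kappa segment took 7.35 to 38.5% of the segment counts in XZSW, 14.0 to 33.3% in HUA and 7.93 to 14.5% in CTL. Of 37 T cell receptor alpha segments, 0 to 14 had counts in XZSW libraries, 0 to 7 in HUA libraries and 0 to 2 in CTL libraries, with 60, 38 and 6 counts summed over each group. These numbers of segments move with the number of counts.

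Trac was the T cell gene called in HUA against CTL. It lies at chr14:54220521-54224206 (GRCm38, plus strand). Trac had 1.68, 1.47, 2.17 and 5.28 CPM in XZSW, 0.822, 1.85, 0.516 and 0.443 CPM in HUA, and 1.96, 2.26, 2.37 and 3.27 CPM in CTL. Every HUA library was below every CTL library, and HUA2 lay among the XZSW libraries. Trac fell in HUA against CTL by 1.44 ± 0.51 log2 units (edgeR's quasi-likelihood test, adjusted p = 0.0493). Its change of 1.55 ± 0.51 log2 units in XZSW against HUA missed the threshold (edgeR's quasi-likelihood test, adjusted p = 0.0559). The call in HUA was lost without any of CTL1, CTL2, CTL3, CTL4, HUA1, HUA3, HUA4, XZSW1 or XZSW3, and the change was -1.58 for HUA1, the 1 HUA library of low GC slope, against CTL.

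The CD3 chains, which signal for the receptor that Trac builds, were called in no comparison. Cd3e had 0.627, 1.13, 1.05 and 1.98 CPM in XZSW, 1.08, 0.669, 0.610 and 0.0590 CPM in HUA, and 0.00, 0.298, 0.0861 and 0.486 CPM in CTL. All XZSW libraries were above all CTL libraries for Cd3e, with a change of 2.44 ± 0.94 log2 units that missed the threshold (edgeR's quasi-likelihood test, adjusted p = 0.144). Its change in HUA against CTL was 1.46 ± 0.92 log2 units. Cd3g had 0.769 to 1.73 CPM in XZSW, 0.0590 to 0.751 CPM in HUA and 0.00 to 0.687 CPM in CTL, with a change of 2.08 ± 0.91 log2 units in XZSW against CTL. Cd3d had 0.114 to 0.779 CPM in XZSW, 0.103 to 0.582 CPM in HUA and 0.203 to 0.337 CPM in CTL, and its 3 changes lay between 0.09 and 0.59 log2 units.

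Cd27, a co-stimulatory receptor of T cells that human memory B cells also carry, was the T and NK gene called in XZSW against HUA. Cd27 had 0.556, 0.873, 1.19 and 1.19 CPM in XZSW, 0.286, 0.451, 0.246 and 0.325 CPM in HUA, and 0.462, 1.23, 0.495 and 0.972 CPM in CTL. All XZSW libraries were above all HUA libraries, and CTL overlapped XZSW. Cd27 rose in XZSW against HUA by 1.54 ± 0.45 log2 units (edgeR's quasi-likelihood test, adjusted p = 0.0368). The call was lost without any of CTL4, HUA1, HUA3, HUA4, XZSW2, XZSW3 or XZSW4, with changes of 1.39 to 1.73 over the fits that left out 1 library. The change was 1.81 within the libraries of high GC slope, not past the threshold (edgeR's quasi-likelihood test, adjusted p = 0.152), and 1.33 for XZSW1 and XZSW2 against HUA1 alone. In HUA against CTL it was -1.27 ± 0.45 log2 units (edgeR's quasi-likelihood test, adjusted p = 0.0526). The other co-stimulatory receptor of the set, Cd28, had 0.0712, 0.00, 0.175 and 1.07 CPM in XZSW, 0.561, 0.189, 0.117 and 0.00 CPM in HUA, and 0.111, 0.417, 0.603 and 0.503 CPM in CTL, and its groups overlapped.

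The co-receptor genes of cytotoxic and helper T cells were low. Cd8a had 1.30, 0.873, 2.32 and 5.18 CPM in XZSW, 0.947, 1.22, 0.551 and 0.782 CPM in HUA, and 0.740, 0.476, 0.711 and 1.78 CPM in CTL. XZSW3 and XZSW4 were above all other libraries for Cd8a, and its changes of 1.46 ± 0.56 log2 units against HUA and 1.38 ± 0.56 against CTL missed the threshold (edgeR's quasi-likelihood test, adjusted p = 0.0978 and 0.164). Cd8b1, its partner, was counted in 8 libraries. It had 0.00, 0.00, 0.539 and 1.74 CPM in XZSW, 0.118 to 0.448 CPM in HUA and 0.00 to 0.754 CPM in CTL, and its groups overlapped. Cd4, which human and rat macrophages also make, had 0.171 to 1.12 CPM in XZSW, 0.0590 to 0.785 CPM in HUA and 0.00 to 0.201 CPM in CTL.

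Of the signalling and adhesion genes, Lck, the kinase that starts T cell receptor signalling, had the highest mean over the 12 libraries, at 0.667 FPKM. Lck had 1.30, 1.43, 2.29 and 4.32 CPM in XZSW, 2.09, 2.85, 3.05 and 2.42 CPM in HUA, and 1.48, 1.17, 0.754 and 2.38 CPM in CTL. Its groups overlapped, with changes of 0.84 ± 0.42 log2 units in HUA against CTL and -0.16 ± 0.42 in XZSW against HUA. Zap70, the kinase downstream of Lck, had 0.00 to 1.38 CPM in XZSW, 0.251 to 0.648 CPM in HUA and 0.00 to 0.519 CPM in CTL. Cd2, an adhesion receptor, and Cd5, a brake on receptor signals, stayed under 0.80 CPM in every library. None of these 4 genes was called.

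The cytotoxic and NK genes were close to the limit of detection. Il2rb, a receptor chain for interleukins 2 and 15 on NK and activated T cells, had 1.34, 0.705, 1.41 and 3.15 CPM in XZSW, 1.13, 1.08, 0.786 and 0.753 CPM in HUA, and 0.351, 1.45, 0.344 and 2.08 CPM in CTL. Nkg7, a granule protein, had 0.184 to 1.13 CPM in XZSW, 0.149 to 0.509 CPM in HUA and 0.00 to 0.385 CPM in CTL. The granzyme genes Gzma and Gzmb reached 0.406 and 0.508 CPM, both in XZSW4, and in CTL were counted in CTL4 alone. Prf1, which encodes perforin, was counted in all 4 XZSW libraries at 0.0613 to 0.499 CPM, in none of the HUA libraries, and in 3 CTL libraries at up to 0.101 CPM, and edgeR's filter on low counts left it out.

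Summed levels of the T and NK genes rested on a few libraries. The 20 genes summed to 9.65, 9.65, 19.0 and 31.3 CPM in XZSW, 10.4, 12.6, 9.71 and 6.13 CPM in HUA, and 6.75, 9.32, 6.44 and 16.2 CPM in CTL. XZSW3, XZSW4 and CTL4 were the highest libraries, and the groups overlapped. In XZSW against CTL the median log2 change of the 17 tested genes was 1.26, beside 0.04 over all tested genes, and 0.56 without XZSW4. Within the 7 libraries of low GC slope, which lack XZSW3 and XZSW4, that median was -0.07. In XZSW against HUA the median was 0.81, beside 0.01 over all genes, with 1.66 within the libraries of high GC slope (2 XZSW, 3 HUA) and -0.35 for XZSW1 and XZSW2 against the single library HUA1. In HUA against CTL it was 0.26, beside 0.06 over all genes, with 1.01 without CTL4 and 0.025 without CTL3. That median was -0.576 with the kind of GC slope as a further term and -0.084 with a filter of 1 CPM in 4 libraries. The medians of the 11 B and plasma genes were -0.15 in HUA against CTL, 1.22 in XZSW against HUA and 0.26 in XZSW against CTL. Leaving out HUA3 gave -0.71 and leaving out HUA4 gave 0.09 for HUA against CTL. Leaving out CTL4 gave 0.80 and leaving out XZSW3 gave 0.09 for XZSW against CTL, and leaving out XZSW3 gave 0.80 for XZSW against HUA. For XZSW against HUA the B and plasma median was 1.71 within the libraries of high GC slope. For XZSW1 and XZSW2 against HUA1 alone it was 0.303. With limma it was 0.235 on log2(FPKM + 1) and 0.848 on log2(FPKM + 0.1). For HUA against CTL it was -0.89 with the kind of GC slope as a further term. A filter of 1 CPM in 4 libraries, which leaves fewer genes, gave -0.825.

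**Figure D5:**
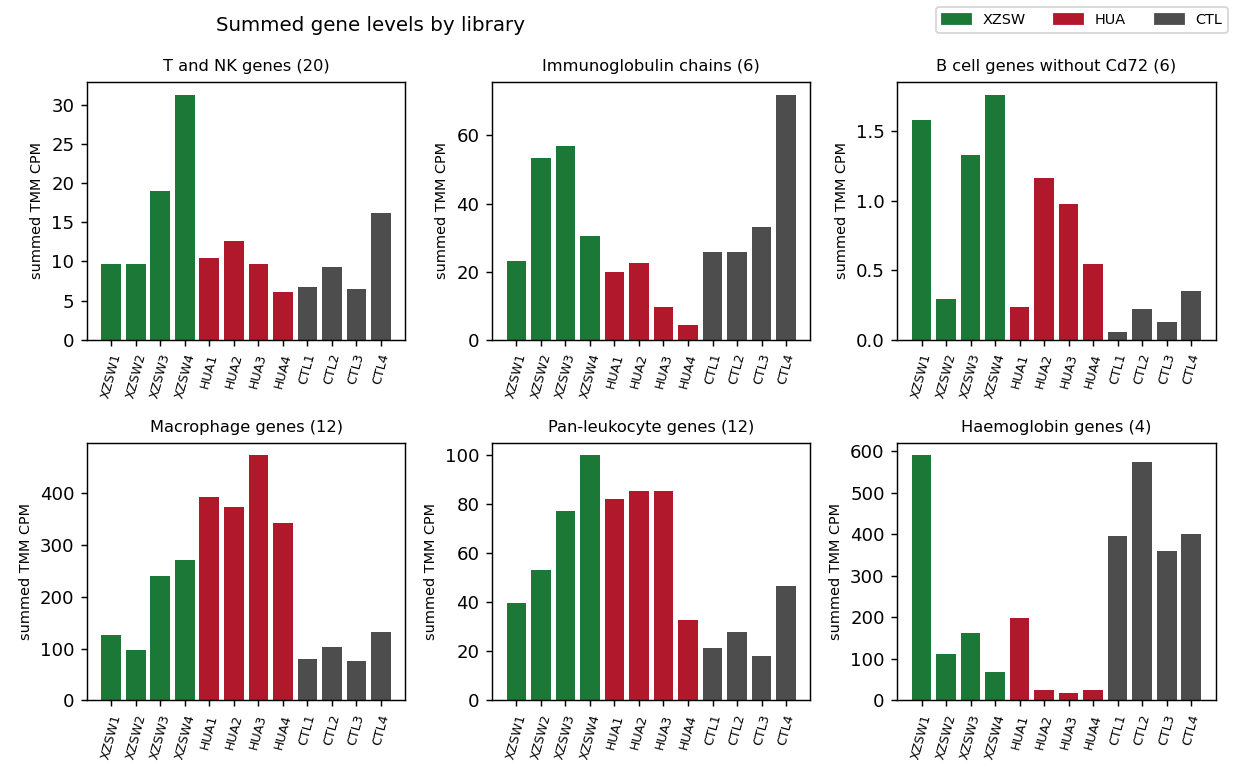
Summed TMM CPM of gene lists by library. T and NK genes peak in XZSW4 at 31.3 CPM, immunoglobulin chains in CTL4 at 72.0 CPM, macrophage genes are highest in the HUA libraries at 342.5 to 472.4 CPM, and haemoglobin genes are lowest in HUA2, HUA3 and HUA4.

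Further lymphocyte genes outside the 35 were tested in the same way. Of 28 tested genes of T and NK cells, edgeR's quasi-likelihood test called 0 in HUA against CTL, beside 27.8% of all tested genes. There 4 had an unadjusted p under 0.05, DESeq2 called 2 and limma 1 or 0. Between XZSW and HUA 1 of the 28 was called, beside 15.4% of all tested genes. This was Bcl11b, a T cell identity factor that also has roles outside the blood lineages. Bcl11b rose, with 18.04, 15.5, 7.44 and 8.89 CPM in XZSW and 3.64, 6.83, 2.58 and 4.84 CPM in HUA. It had 8.08, 9.60, 8.94 and 5.08 CPM in CTL, which overlapped both other groups. Against CTL its changes were -0.83 ± 0.34 log2 units in HUA and 0.66 ± 0.34 in XZSW, and neither was called. In XZSW against CTL edgeR called 0 of the 28, beside 4.99% of all tested genes, with 1 at an unadjusted p under 0.05. DESeq2 and limma each called 1 there. Of 16 further B and plasma genes tested, 2 were higher and 1 was lower in HUA than in CTL, or 3 of 16 beside the 27.8% of all genes. Prdm1, the factor that drives plasma cell formation, rose by 1.36 ± 0.43 log2 units, and Cr2, the complement receptor of B cells and follicular dendritic cells, fell by 2.18 ± 0.60 log2 units. The Prdm1 call was lost without CTL1, CTL2, CTL3, HUA1 or HUA3, in the fit of the 8 libraries alone, with a replicate block and with the kind of GC slope as a further term. The Bcl11b call held without any 1 library and was lost within the libraries of high GC slope and with limma on log2(FPKM + 1).

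Fcer2a, which encodes the low-affinity IgE receptor CD23 of B cells, was the other gene that rose in HUA. It had 0.199, 0.0613, 0.117 and 0.102 CPM in XZSW, 2.65, 1.22, 1.16 and 0.295 CPM in HUA, and no counts in CTL. The groups did not overlap. Fcer2a had 32 counts over the XZSW libraries and 416 over the HUA libraries. It was called higher than in CTL both in XZSW (edgeR's quasi-likelihood test, adjusted p = 0.031) and in HUA (adjusted p = 0.00046 in the same edgeR test). It fell in XZSW against HUA by 3.45 ± 0.74 log2 units (edgeR's quasi-likelihood test, adjusted p = 0.013). Its call in HUA against CTL held without any 1 library. The call in XZSW against CTL was lost with limma and without any of CTL1, CTL2, CTL3, CTL4, XZSW1, XZSW3 or XZSW4, and the call in XZSW against HUA was lost within the libraries of high GC slope. The B cell genes Ms4a1 and Pax5 had 4 counts each over the HUA libraries.

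Among 16 tested genes that attract or sustain lymphocytes, 6 rose and 4 fell in HUA against CTL, and 3 rose and 5 fell in XZSW against HUA, beside 27.8% and 15.4% of all tested genes called in these comparisons. Cxcl16, a ligand of CXCR6 on T and NK cells, had 38.9, 46.4, 74.2 and 64.3 CPM in XZSW, 113, 130, 154 and 114 CPM in HUA, and 33.9, 35.3, 36.5 and 43.2 CPM in CTL. HUA was above both other groups, by 1.78 ± 0.20 log2 units against CTL, and XZSW fell by 1.19 ± 0.19 log2 units against HUA. Vcam1, an adhesion molecule for lymphocytes and monocytes, rose by 3.27 ± 0.46 log2 units in HUA against CTL and fell by 2.02 ± 0.43 in XZSW against HUA, and Icam1, Ccl20 and the T cell survival factor Il7 were called in the same directions. Cxcl10 rose in HUA against CTL by 1.63 ± 0.53 log2 units and was not called in XZSW against HUA. The Cxcl10 call was lost without CTL1, CTL3, CTL4 or HUA2, the Il7 call in XZSW against HUA without HUA3, and those of Cxcl16, Vcam1 and Icam1 held without any 1 library. Within the libraries of high GC slope, the XZSW against HUA calls of Cxcl16, Vcam1, Icam1 and Il7 were lost and that of Ccl20 held. With the kind of GC slope as a further term, the Cxcl10 call was lost and the HUA against CTL calls of Cxcl16, Vcam1, Icam1, Ccl20 and Il7 held.

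Il15, which sustains NK cells and memory T cells, and Cxcl12, which retains B and plasma cells, ran the opposite way. Il15 had 12.3, 17.0, 12.6 and 16.1 CPM in XZSW, 4.96, 9.70, 5.76 and 5.83 CPM in HUA, and 15.2, 20.4, 19.5 and 14.8 CPM in CTL. It fell in HUA against CTL by 1.41 ± 0.22 log2 units and rose in XZSW against HUA by 1.15 ± 0.22 log2 units. Cxcl12 fell in HUA against CTL by 1.49 ± 0.40 log2 units and rose in XZSW against HUA by 1.496 ± 0.40 log2 units. Ccl28, a chemokine for IgA plasma cells, had 10.2, 15.4, 13.5 and 7.38 CPM in XZSW, 8.43, 11.04, 3.06 and 7.48 CPM in HUA, and 70.3, 83.0, 88.1 and 57.1 CPM in CTL. Both XZSW and HUA were below CTL in every library, and Ccl28 fell by 3.31 ± 0.35 log2 units in HUA against CTL and by 2.68 ± 0.34 in XZSW against CTL. Pigr, the receptor that carries IgA and IgM across epithelium, fell by 0.98 ± 0.28 log2 units in HUA against CTL. Ccl21a, a chemokine with near-identical copies in the genome, was called higher in XZSW against HUA by 1.45 ± 0.38 log2 units and is uncertain for that reason. The Il15 and Ccl28 calls held without any 1 library. The Cxcl12 call in XZSW against HUA was lost without HUA4 or XZSW2, the Pigr call without CTL2, CTL4, HUA2, HUA3 or HUA4, and the Ccl21a call without HUA4 or XZSW3. Within the libraries of high GC slope the XZSW against HUA calls of Il15, Cxcl12 and Ccl21a were lost. Cxcl12 also lost that call in the fit of the 8 libraries alone, and Ccl21a with limma. With the kind of GC slope as a further term the HUA against CTL calls of Cxcl12 and Pigr were lost and those of Il15 and Ccl28 held, and Pigr also lost its call with library totals and with limma.

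Of 12 general leukocyte genes, among them Coro1a, Laptm5 and Cd53, 7 rose in HUA against CTL and 2 in XZSW against CTL, beside 14.9% and 2.72% of all tested genes called higher, and in XZSW against HUA 0 were called by edgeR, DESeq2 or limma, with 0 at an unadjusted p under 0.05. Their sum was 39.8 to 99.7 CPM in XZSW, 32.6 to 85.2 CPM in HUA and 18.2 to 46.5 CPM in CTL. Among neutrophil and plasmacytoid dendritic cell genes, 3 of 8 rose in HUA against CTL, beside the same 14.9%: S100a9, Ly6g and Pacsin1. S100a9 had 4.995 CPM in HUA1, while HUA4, at 0.369 CPM, lay among the CTL libraries. Ly6g had 0.212 to 0.443 CPM in HUA and no counts in CTL. Pacsin1 was close to the threshold (edgeR's quasi-likelihood test, adjusted p = 0.0491). The other tested genes, S100a8, Csf3r, Cxcr2, Siglech and Ccr9, were not called. Mpo, which edgeR's filter left out, was counted in XZSW4 at 2.86 CPM, in CTL4 at 1.34 CPM and in no other library. Adipocyte genes, which can mark fat attached to the tissue, summed to 499.9 CPM in XZSW1 and to 37.2 to 119.8 CPM in the other libraries. Of the 119.8 CPM in CTL4, 96.4 CPM was Fabp4 and 19.5 CPM was Car3. Adipoq and Plin1 stood at 13.99 and 14.09 CPM in XZSW1, and elsewhere at most at 1.24 and 0.444 CPM, both in CTL1. The 4 lymph node stroma genes summed to 4.20 to 10.7 CPM in XZSW, 1.72 to 2.84 CPM in HUA and 3.02 to 4.65 CPM in CTL, with the highest sums in XZSW3 and XZSW4. Most of those sums was Ccl21a, at 9.23 of 10.7 CPM in XZSW3 and 5.37 of 6.50 CPM in XZSW4. Its value is uncertain for its near-identical copies. Of the 4 genes only 2 were tested, Ccl21a and Cr2, and Cr2 is also among the further B cell genes. The part of these gene lists in the lymphocyte levels was not tested.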

How the data were processed

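Total RNA of whole kidney was sequenced in strand-specific libraries, per the labels' protocols. Cutadapt 1.9, HISAT2 2.2.1 and the build GRCm38 are named in the submitters' processing notes. The counting tool, and whether it used strand, are not given in the sources used here. For each gene and library, the authors deposited a count and an FPKM value. The counts were tested in edgeR 4.0.16 (TMM, its default filter by group, quasi-likelihood F-test, all 12 libraries in 1 model, Benjamini-Hochberg over 19772 genes). The standard error is the log2 change divided by the square root of F. FPKM values were summed and shared as deposited, and tested with limma as an alternative on log2(FPKM + 1) and log2(FPKM + 0.1). Other alternatives were DESeq2, other scalings and filters, a fit on the 8 libraries compared, a replicate block, a term for the GC slope, and leaving out each library; fits within libraries of 1 GC slope and the haemoglobin list were added after seeing the data. The fitting was tested on simulated counts. GC slopes used GENCODE M21 transcripts. Members and lists were chosen with earlier results of these data known. All members are accounted for; values per library are given where a member was called or averaged at least 1 FPKM, and further genes where called. Replicate pairs differed by more than sampling noise (chi-square per degree of freedom at least 24.3).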

Additional observations from a re-analysis of the deposited data

Results flagged for a closer look

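In 8 of the 83 sets of 4 libraries examined, 1 library stood apart from the other 3 by Dixon's test at its 95% value. Where the other 3 libraries have no counts, this rule flags any count. That was so for Gzma and Gzmb in CTL4, Cd79a in CTL2 and Ighg2c in HUA1. The chance rate of about 1 in 20 does not hold for such sets, so the number of flags is not read as an excess. In CTL4 Jchain stood at 13.6 CPM and Igha at 40.1 CPM, with the other CTL libraries at 3.14 to 4.67 and 12.04 to 16.7 CPM, and the granzyme genes Gzma and Gzmb at 0.268 and 0.184 CPM against 0 in the others. Cd79a was counted in CTL2 alone of its group, at 0.159 CPM. Cd28 in XZSW4 was 1.07 CPM against at most 0.175 CPM in the other XZSW libraries. Ighg2c stood apart in XZSW3 at 0.845 CPM and in HUA1 at 0.648 CPM, where the other HUA libraries had none.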

How the results depend on the processing

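Cd72 stayed past the threshold in HUA against CTL and in XZSW against CTL in every alternative run, and no called member changed sign. Nor did the further lymphocyte and attractant genes called. The other calls came and went, and the shares of all genes called in these alternatives are not given. The T and NK genes called in HUA against CTL (1) were 0 with DESeq2's size factors in edgeR, library totals, the 8 libraries of the comparison and either limma fit, 3 with DESeq2 and 2 with a GC term. In XZSW against HUA (1) they were 0 with library totals, the 8 libraries and within either kind of GC slope, 4 with DESeq2 and 2 with a GC term, and in XZSW against CTL (0) they were 1 with DESeq2. The B and plasma genes called in HUA against CTL (4) were 2 with library totals, no filter, the 8 libraries and the low GC slope libraries, 7 with DESeq2, and 1 with a GC term and either limma fit. In XZSW against HUA (1) they were 2 with DESeq2 and 0 with library totals, no filter, the 8 libraries, a GC term, either limma fit and within either kind of GC slope, and in XZSW against CTL (1) they were 4 with DESeq2 and 2 with the 8 libraries. The low GC slope counts that involve HUA rest on HUA1 as its only library, assumed to vary like the other groups. Leaving out 1 library gave 0 to 2 T and NK genes and 1 to 5 B and plasma genes in HUA against CTL, 0 to 3 and 0 to 2 in XZSW against HUA, and 0 to 0 and 1 to 2 in XZSW against CTL. A replicate block gave 0 T and NK and 1 B and plasma gene in HUA against CTL and 0 B and plasma genes in XZSW against HUA. Deviations from the group means correlated at -0.05 to 0.17 between same-numbered libraries of different groups and at -0.17 to 0.10 between other-numbered ones. These ranges overlap, so they do not decide whether the numbers pair the libraries. Library totals in place of TMM moved the median change of all genes by 0.33 log2 units in HUA against CTL, -0.17 in XZSW against HUA and 0.16 in XZSW against CTL. The DESeq2 and limma counts include members that edgeR's filter left out, Prf1 in both T and NK comparisons with HUA under DESeq2 and in XZSW against HUA under limma, and Cd22 in both B and plasma comparisons with CTL under DESeq2. Cd79b and Cd27 were not tested under a filter of 1 CPM in 4 libraries. Where calls were lost, the cause was not tested. Most members have few counts, so differences within their spread were not detectable at this depth.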
